A study of Mus musculus with 5 samples.

Results

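The nuclear-encoded subunits of respiratory complexes II to V and cytochrome c were followed in invariant natural killer T (iNKT) cells of mouse liver. Members were the protein-coding genes Sdha, Sdhb, Sdhc, Sdhd, Cycs and Cyc1 and those whose symbols begin with Uqcr, with Atp5, or with Cox followed by a digit of 4 to 8. There were 50 such genes among the 55364 gene IDs of the count tables: 4 of complex II, 9 of complex III, cytochrome c, 18 of complex IV and 18 of complex V. The HCC group (3 libraries) came from livers with hepatocellular carcinoma in male wild-type C57BL/6 mice, given a single intraperitoneal dose of 25 mg/kg diethylnitrosamine (DEN), a liver carcinogen, at 15 days of age. The healthy group (2 libraries) came from wild-type mice given PBS, for which the labels' common protocol names the same strain and sex. Mice were killed between 38 and 42 weeks of age, and each library is described as coming from its own mouse. iNKT cells, T cells whose semi-invariant receptor recognises lipids on CD1d, were sorted as positive for the PBS57-loaded CD1d tetramer and for TCR beta, and their RNA was read as 3′ mRNA tags.

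These complexes make up the respiratory chain after complex I. Complex II (succinate dehydrogenase) feeds electrons from succinate into ubiquinone, complex III (the cytochrome bc1 complex) passes them to cytochrome c, and complex IV (cytochrome c oxidase) passes them to oxygen, while complex V (ATP synthase) makes ATP from the proton gradient that complexes III and IV help to build. Complex II is encoded in the nucleus alone, whereas complexes III, IV and V each join nuclear subunits with mitochondrially encoded ones. The mitochondrially encoded subunits were sought by symbol, and 0 were found in the count tables, so they could not be analysed here. Naive and memory T cells are known to rely on oxidative phosphorylation, and activated effector T cells add strong glycolysis.

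Libraries held 1837653, 1718452 and 1883979 counts in HCC 1, 2 and 3, against 2224356 and 1821863 in healthy 1 and 2. Levels are given as CPM, counts scaled to each library's own total, and 3 counts, the limit that a count of 0 allows, correspond to 1.35 to 1.75 CPM. One library stood apart: across all genes tested, healthy 1 correlated with the other 4 libraries at a Pearson r of 0.764 to 0.816, and those 4 with each other at 0.851 to 0.904. Healthy 1 had the most counts but the fewest genes with a count, 10861, against 11822 to 13229 in the other 4. Pseudogene rows held 38.5% of its counts, against 31.7 to 36.5% in the other 4. Fold changes of members below are therefore given with and without healthy 1. Summed T and iNKT cell markers (11 of 11 with a count) were at 5187 to 5936 CPM in HCC libraries and 4572 to 5637 CPM in healthy libraries, while Zbtb16, the defining iNKT transcription factor, did not exceed 1.65 CPM in any library. Summed hepatocyte markers (15 of 17 with a count, Apob and Tat at 0) were at 78.4 to 734 CPM in HCC libraries and 53.5 to 58.7 CPM in healthy libraries. Summed erythroid markers (6 of 7 with a count, Slc4a1 at 0) were at 7391 to 17083 CPM in HCC libraries and 2787 to 2975 CPM in healthy libraries. The B cell markers (6 of 6 with a count) summed to 112 to 175 CPM in HCC libraries and 36.0 to 123 CPM in healthy libraries, and the NK cell markers (3 of 5, Ncr1 and Klra4 at 0) to 98.9 to 359.7 CPM in HCC libraries and 65.9 to 230.2 CPM in healthy libraries. Nearly all of the NK sum was Klrc2, at 352, 97.8 and 139 CPM in HCC libraries and at 227 and 64.8 CPM in healthy libraries. Klra8 did not exceed 7.07 CPM and Eomes 0.544 CPM in any library. Macrophage and Kupffer cell (9 of 9), neutrophil (3 of 6, Csf3r at 0), dendritic (2 of 5, Flt3 and Xcr1 at 0), endothelial (3 of 5, Stab2 at 0) and stellate (4 of 6, Lrat at 0) marker sums did not exceed 43.2 CPM in any library. The part of these other cells in the levels below was not tested, and in sorted bulk RNA fewer cells of a type and less RNA per cell cannot be told apart.

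No subunit gene passed the test between HCC and healthy iNKT cells. Of the 50 genes, 42 had a count in some library, and 41 had enough counts for the edgeR quasi-likelihood test, which covered 8468 genes. At an adjusted p under 0.05, 0 of the 41 were called, against 0% of all genes tested, and the smallest adjusted p was 0.9999 for members and for all genes alike. At an unadjusted p under 0.05, 0 members were fitted higher and 2 lower in HCC (Atp5e and Atp5o), where 2.15% of all genes were fitted higher and 1.48% lower at that p. Fold changes were computed after TMM scaling and are HCC over healthy throughout. They were split evenly, with 20 members fitted higher and 21 fitted lower in HCC, against 49.7% of all genes fitted lower. The median log2 fold change was -0.0041 over the members and 0.0046 over all genes tested. With library totals in place of TMM the median of all genes moved to 0.16 and that of the members to 0.12, so a sign close to 0 depends on the scaling.

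Summed over all 50 genes, the subunits took 9451, 8685 and 7933 CPM in HCC libraries, against 7534 and 10260.4 CPM in healthy libraries. On library totals, every HCC library lay between the pair of healthy libraries. After TMM scaling, HCC 2 and 3 lay below both healthy libraries, and the log2 ratio of group means went from -0.03 to -0.20. The members held 0.945%, 0.869% and 0.793% of counts in HCC libraries and 0.753% and 1.03% in healthy libraries. Group means were 8689 ± 759 CPM in HCC (SD, n = 3) and 8897 ± 1928 CPM in healthy cells (SD, n = 2). The healthy libraries of a member differed by a median of 1.97-fold, and the highest and lowest HCC library by 1.44-fold. The median absolute log2 ratio of the healthy libraries was 0.97 over the members and 0.96 over all genes tested. It was smaller for nuclear complex I genes, Ndufaf assembly factors included (0.79), tricarboxylic acid cycle enzymes (0.63), cytosolic ribosomal proteins (0.62) and T and iNKT cell markers (0.53). It was larger for assembly factors of complexes II to V (0.998), carriers and regulators linked to ATP synthase (1.32) and transcription factors of nuclear respiratory genes (1.76).

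**Figure D1:**
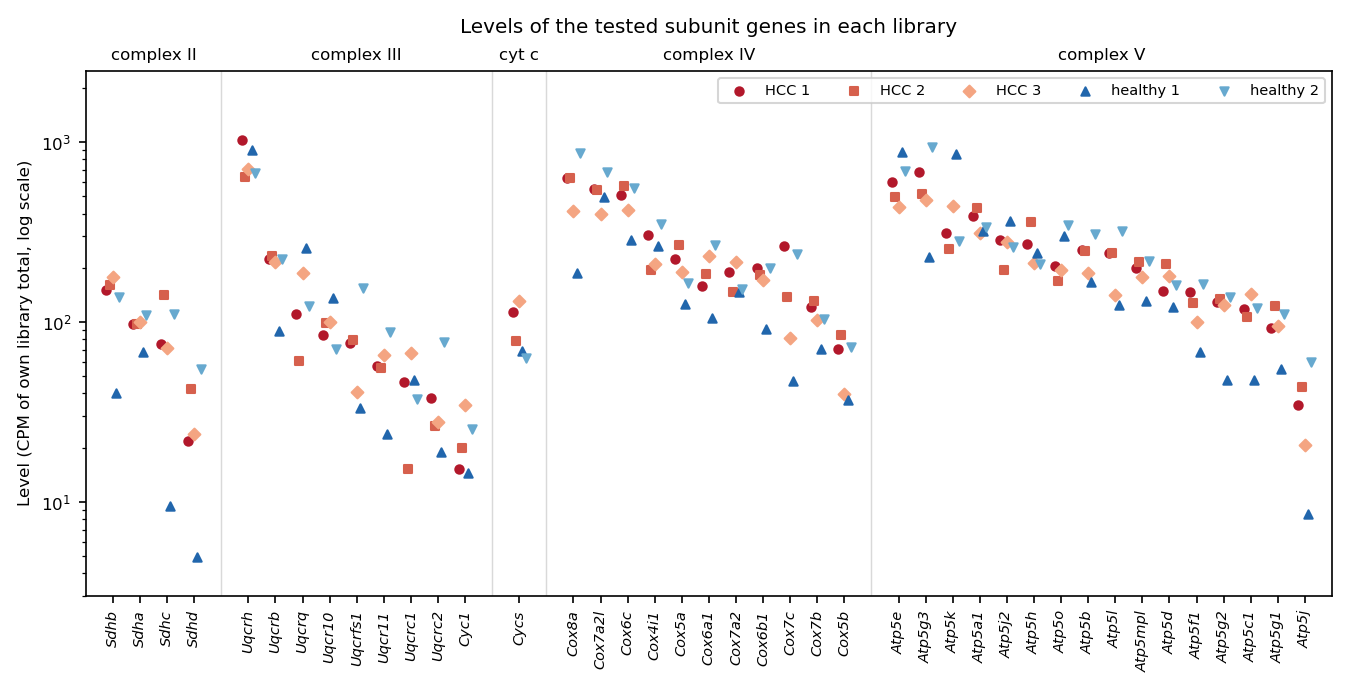
Level of each of the 41 tested subunit genes in each library, in CPM of the library's own total on a log axis, grouped by complex and ordered by mean level. HCC libraries are red and healthy libraries blue; healthy 1 (upward triangles) is the lowest point for 27 of the 41 genes and the highest for 5.

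For 16 of the 41 members the healthy libraries lay on opposite sides of all HCC libraries, a larger share than the 17.0% of all genes tested. Healthy 1 was the lowest of the 5 libraries for 27 of the 41 members (65.9%), against 41.9% of all genes tested, and the highest for 5 members (12.2%), against 18.8% of all genes. It was under 0.5 times healthy 2 for 18 members (43.9%), against 35.2% of all genes. The 5 members highest in healthy 1 were Uqcrq, Uqcr10, Atp5e, Atp5k and Atp5j2, small subunits of complexes III and V. Their annotated transcripts had a median length of 434 bases, against 716 bases for the 27 members lowest in healthy 1. Among the 6446 tested protein-coding genes counted in both healthy libraries, genes highest in healthy 1 had a median length of 1697 bases and genes lowest in it 1939 bases. Length and the log2 ratio of healthy 1 to healthy 2 had a Spearman rho of -0.30 over the 41 members. Over the 6446 genes the rho was 0.014. Genes are not independent replicates, and the part of length in the ranks of healthy 1 was not tested.

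The balance of the set depended on the healthy library it was compared with. Against healthy 2 alone, members were fitted lower in HCC in 28 of 41 cases (68.3%), against 48.3% of all genes, with a median log2 fold change of -0.17, against 0.03 over all genes. Against healthy 1 alone, 12 of 41 were fitted lower (29.3%), against 43.4% of all genes, with a median of 0.45, against 0.21 over all genes. The median coefficient of variation over HCC 1, 2 and 3 was 19.2% for the members and 35.5% for all genes tested. It was 17.8% for the same complex I genes, 14.8% for cytosolic ribosomal proteins and 19.3% for T and iNKT cell markers.

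**Figure D2:**
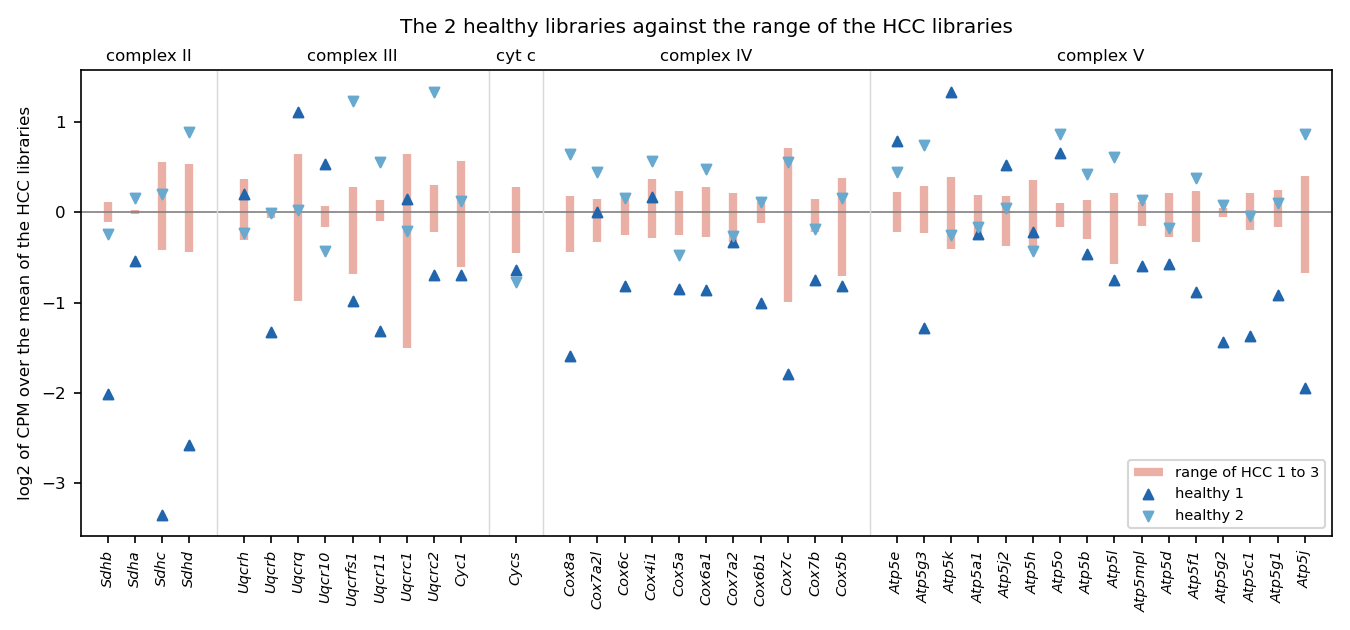
Level of each tested subunit gene in healthy 1 and healthy 2 as the log2 of its CPM over the mean of the HCC libraries; the red bars span HCC 1 to 3 and 0 is the HCC mean. Healthy 1 lies below the HCC range for 28 genes and above it for 6, while healthy 2 lies inside the range for 17, above it for 19 and below it for 5.

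In CPM of library totals, the HCC and healthy libraries did not overlap in 5 of the 41 members (12.2%), against 18.3% of all genes tested. Sdhb, Cycs and Cox5a had all HCC libraries above both healthy ones (7.32% of members, against 12.8% of all genes). Atp5e and Atp5o had them all below (4.88% of members, against 5.46% of all genes). Each of these shares is below that of all genes tested. RefSeq promoter windows (build GRCm38.p6, 250 bases before to 50 after the annotated start, gene strand) matched 37 of the 50 members and are shown for 4 of these 5, those with a match to a motif of NRF1 or of the ETS factor GABP (also called NRF2), regulators known for driving nuclear respiratory genes. Capitals mark the matches, on either strand, to GCGCA and GCGC with 1 base between them (the longer NRF1 motif), to GCATGCGC (the NRF1 core, which can overlap it) and to CCGGAAG (ETS). The windows are chr4:140961021-140961320 (+) for Sdhb, chr6:50566520-50566819 (-) for Cycs, chr2:174464052-174464351 (-) for Atp5e and chr16:91931581-91931880 (-) for Atp5o.
Sdhb: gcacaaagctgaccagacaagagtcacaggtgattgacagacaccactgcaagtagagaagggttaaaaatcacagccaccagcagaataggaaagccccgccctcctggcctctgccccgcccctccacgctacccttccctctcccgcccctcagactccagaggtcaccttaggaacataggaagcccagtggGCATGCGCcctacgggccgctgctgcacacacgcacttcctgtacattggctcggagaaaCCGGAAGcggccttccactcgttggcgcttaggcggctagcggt
Cycs: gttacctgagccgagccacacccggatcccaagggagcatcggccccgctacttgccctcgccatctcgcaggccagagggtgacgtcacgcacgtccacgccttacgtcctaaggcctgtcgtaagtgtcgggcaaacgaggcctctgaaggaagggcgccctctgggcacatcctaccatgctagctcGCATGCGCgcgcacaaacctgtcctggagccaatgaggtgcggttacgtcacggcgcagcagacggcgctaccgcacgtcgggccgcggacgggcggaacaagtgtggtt
Atp5e: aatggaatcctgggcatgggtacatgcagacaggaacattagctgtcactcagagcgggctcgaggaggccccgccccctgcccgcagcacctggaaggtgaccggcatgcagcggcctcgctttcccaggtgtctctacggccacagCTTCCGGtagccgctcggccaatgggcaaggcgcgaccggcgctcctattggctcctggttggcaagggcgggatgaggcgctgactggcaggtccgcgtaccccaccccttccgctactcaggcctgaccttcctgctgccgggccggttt
Atp5o: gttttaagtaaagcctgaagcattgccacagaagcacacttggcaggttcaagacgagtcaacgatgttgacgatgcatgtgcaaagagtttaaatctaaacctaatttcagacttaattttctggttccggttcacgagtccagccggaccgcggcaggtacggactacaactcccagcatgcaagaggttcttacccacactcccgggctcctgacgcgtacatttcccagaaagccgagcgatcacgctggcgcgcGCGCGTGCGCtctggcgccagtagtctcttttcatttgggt

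The window of Cox5a held none of these matches. Among the 32 tested members with a window, 9 (28.1%) held the longer NRF1 motif, against 12.5% of the windows of tested protein-coding genes and 4.78% of all windows. GCATGCGC, searched after the Cycs window had been read, was in 8 (25.0%), against 6.14% and 2.81%. CCGGAAG was in 11 (34.4%), against 22.7% and 9.12%. The YY1 motif AAGATGGC was in 2 (6.25%), against 5.98% and 2.88%, and the TATA box TATAAA in 1 (3.13%), against 6.54% and 14.2%. A match describes letters in the window and is not evidence of binding, and members on both sides of the HCC to healthy comparison held such matches: Sdhb and Cycs above, Atp5e and Atp5o below.

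In complex II healthy 1 was the lowest library for all 4 subunits, which summed to 345.0, 442 and 373 CPM in HCC libraries, against 123 and 412 CPM in healthy libraries. On library totals, the HCC sums enclosed healthy 2 and were all above healthy 1. Sdhb, the iron-sulfur subunit (chr4:140961203-140979193), was at 151, 161 and 177 CPM in HCC libraries and at 40.5 and 138 CPM in healthy libraries. The groups did not overlap, but healthy 2 lay close under HCC 1 and the healthy libraries differed by 3.41-fold. Its log2 fold change was 0.77 (SE 0.46, edgeR adjusted p = 0.9999) and 0.22 without healthy 1. Sdhc, a membrane anchor that carries the heme, was at 75.1, 141 and 71.7 CPM in HCC libraries and at 9.44 and 110.3 CPM in healthy libraries, where healthy 1 held 21 counts. Healthy 2 lay within the HCC range and healthy 1 far below it, 11.7-fold under healthy 2. The log2 fold change of Sdhc was 0.61 (SE 0.74, adjusted p = 0.9999), -0.25 without healthy 1 and 3.03 without healthy 2, and in that last fit Sdhc was called at an adjusted p of 0.0293, while 2.01% of genes were called.

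Sdhd, the other membrane anchor, was at 21.8, 42.5 and 23.9 CPM in HCC libraries and at 4.95 and 54.3 CPM in healthy libraries. Healthy 1 (11 counts) was below and healthy 2 above every HCC library, and the log2 fold change was -0.08 (SE 0.76) and -0.93 without healthy 1. Sdha, the flavoprotein that oxidises succinate, was at 96.9, 97.8 and 100.3 CPM in HCC libraries and at 67.9 and 109.8 CPM in healthy libraries. The HCC libraries of Sdha were nearly level and lay between the healthy ones, with a log2 fold change of -0.0041 (SE 0.36) and -0.19 without healthy 1. Within complex II, Sdha took 28.1%, 22.1% and 26.9% of the counts in HCC libraries and 55.3% (95% exact interval 49.2 to 61.3%) and 26.6% (23.5 to 29.9%) in healthy libraries, so the subunits did not keep one ratio in healthy 1. Intervals here cover counting error only.

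**Figure D3:**
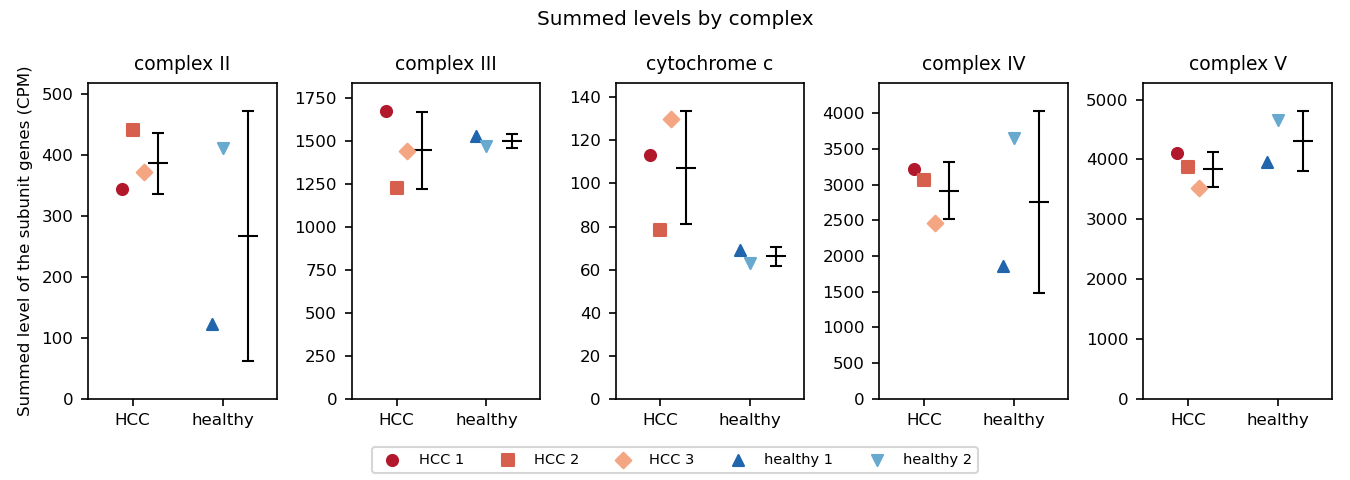
Summed CPM of the subunit genes of each complex in each library, HCC left and healthy right; the bar beside each group is its mean ± SD (n = 3 HCC, n = 2 healthy) and each axis starts at 0. Healthy 1 lies far below the other 4 libraries for complexes II and IV, whereas for complex III both healthy libraries lie within the HCC range.

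Complex III summed to 1673, 1227 and 1440.0 CPM in HCC libraries, against 1529 and 1471 CPM in healthy libraries. On library totals, both healthy sums lay within the HCC range, a log2 ratio of group means of -0.05. After TMM scaling healthy 1 lay above that range, and the ratio was -0.24. The 9 members of complex III were fitted higher in 3 and lower in 6 cases, with a median log2 fold change of -0.21. Uqcrh, the hinge protein that holds cytochrome c1 to cytochrome c, was at 1021, 640.1 and 704 CPM in HCC libraries and at 908 and 675 CPM in healthy libraries. The ranges overlapped, at a log2 fold change of -0.21 (SE 0.39) and 0.20 without healthy 1.

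Uqcrfs1, the Rieske iron-sulfur protein, was at 76.2, 79.7 and 40.9 CPM in HCC libraries and at 33.3 and 155 CPM in healthy libraries. Uqcrc2, a core protein, was at 37.5, 26.2 and 27.6 CPM in HCC libraries and at 18.9 and 76.8 CPM in healthy libraries. For both, healthy 1 was below and healthy 2 above every HCC library, and the log2 fold changes were -0.62 (SE 0.55) for Uqcrfs1 and -0.74 (SE 0.55) for Uqcrc2. Without healthy 1 they were -1.28 and -1.36. In that fit 4 members (Uqcrfs1, Uqcrc2, Atp5o and Atp5g3) were at an unadjusted p under 0.05, all fitted lower, against 3.84% of all genes in either direction. In the same fit 0 members were called, and the HCC libraries were set against a single healthy library assumed to vary as they do.

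Small subunits of complex III went both ways. Uqcrb, known as a ubiquinone-binding subunit, was at 225, 231 and 214 CPM in HCC libraries and at 89.5 and 222 CPM in healthy libraries, with healthy 2 inside the HCC range and healthy 1 under it (log2 fold change 0.40, SE 0.39, and -0.02 without healthy 1). Uqcrq was at 110.5, 60.5 and 187 CPM in HCC libraries and at 258 and 122 CPM in healthy libraries, so healthy 1 was above every HCC library and healthy 2 among them. Its log2 fold change was -0.89 (SE 0.56) and -0.03 without healthy 1. Uqcr10 was at 84.3, 98.9 and 99.3 CPM in HCC libraries and at 136 and 70.3 CPM in healthy libraries, which lay on either side of the HCC range (-0.37, SE 0.43, and 0.39 without healthy 1). The 3 other members, Uqcr11, the core protein Uqcrc1 and cytochrome c1 (Cyc1), had log2 fold changes of -0.16 to 0.09, and of -0.58 to 0.21 without healthy 1. Uqcrc1 was at 46.3, 15.1 and 67.4 CPM in HCC libraries and at 47.7 and 37.3 CPM in healthy libraries, both within the HCC range.

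Cycs, the mobile electron carrier that also activates caspases once released from mitochondria (chr6:50562563-50566538), was at 113, 78.6 and 130.0 CPM in HCC libraries and at 69.2 and 63.1 CPM in healthy libraries. The groups did not overlap, the healthy libraries were close together, and HCC 2 was nearest to them. Group means were 107 ± 26.2 CPM in HCC (SD, n = 3) and 66.2 ± 4.32 CPM in healthy cells (SD, n = 2). The log2 fold change of 0.51 (SE 0.41, adjusted p = 0.9999) did not pass the test and was 0.75 without healthy 1.

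**Figure D4:**
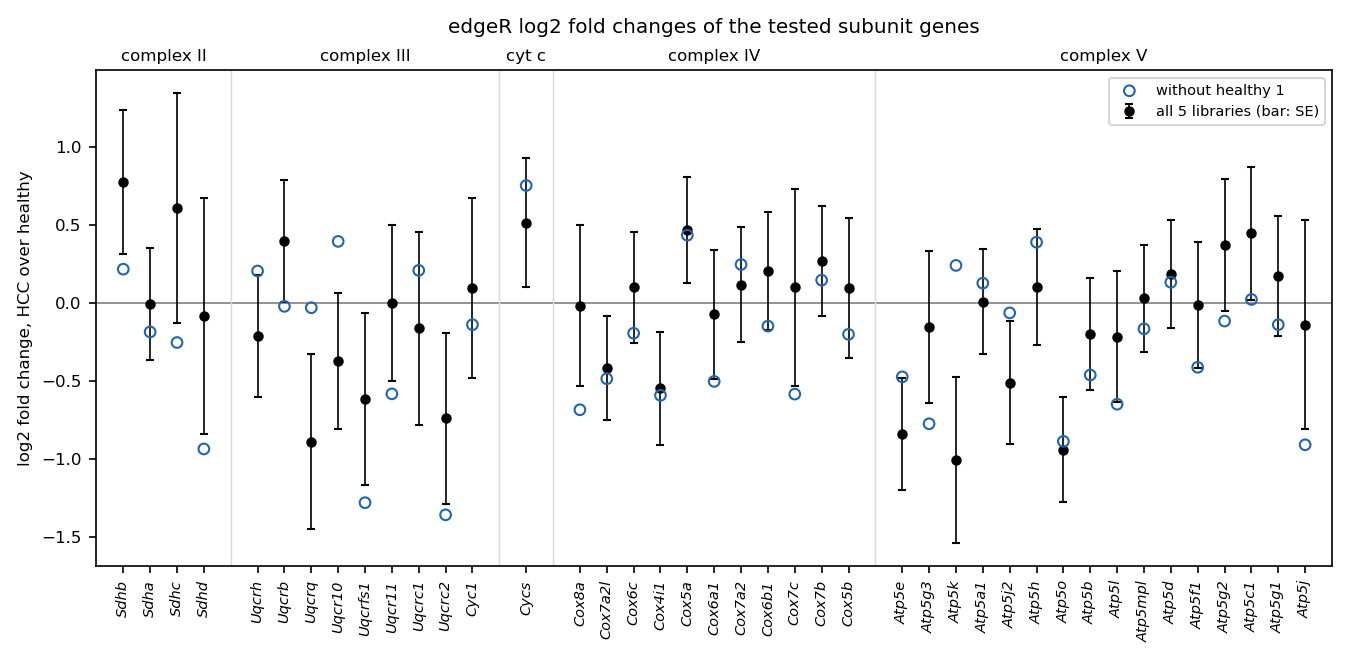
edgeR log2 fold change, HCC over healthy, of each tested subunit gene with all 5 libraries (black, bars show ± SE) and without healthy 1 (open blue circles). Values run from -1.004 (Atp5k) to 0.77 (Sdhb) with all libraries, and the open circle lies under the black point for all 4 complex II genes and for all tested complex IV genes except Cox7a2.

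Complex IV had 18 genes, of which 11 had counts and 7 had none in any library. Together they summed to 3213, 3071 and 2467 CPM in HCC libraries, against 1857 and 3656 CPM in healthy libraries. Healthy 1 was below and healthy 2 above all HCC libraries, and the log2 ratio of group means was 0.08. Cox5a, a subunit on the matrix side (chr9:57521274-57532426), was at 223, 267 and 191 CPM in HCC libraries and at 126 and 164 CPM in healthy libraries. It was the sole complex IV gene whose groups did not overlap, with means of 227 ± 38.1 CPM in HCC (SD, n = 3) and 145 ± 26.3 CPM in healthy cells (SD, n = 2). Its log2 fold change was 0.47 (SE 0.34, adjusted p = 0.9999) and 0.43 without healthy 1. Of the 31-base words in its 3′ end, 83.7% also occur in other annotated genes, of which 1 had counts.

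The isoforms that were detected were those known from non-muscle tissue. Subunits IV, VIa, VIb, VIIa, VIIb and VIII of this complex each have an alternative isoform, mostly of heart and skeletal muscle (Cox6a2, Cox7a1, Cox8b), lung (Cox4i2) or testis (Cox6b2, Cox7b2, Cox8c). All 7 of these genes had 0 counts in every library, which allows up to 1.35 to 1.75 CPM in each. Cox4i1, the common form of subunit IV, was at 304, 193 and 210.2 CPM in HCC libraries and at 265 and 350.2 CPM in healthy libraries. HCC 1 lay between the healthy libraries and the other two HCC libraries below both, at a log2 fold change of -0.55 (SE 0.36) and -0.59 without healthy 1. Cox6a1, the form known from liver and most tissues, was at 158, 184 and 232 CPM in HCC libraries and at 105 and 267 CPM in healthy libraries, which enclosed them (log2 fold change -0.07, SE 0.41, and -0.50 without healthy 1).

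Cox7a2, the common form of subunit VIIa, was at 190.5, 147 and 214 CPM in HCC libraries and at 147 and 153 CPM in healthy libraries, with HCC 2 and healthy 1 nearly level (log2 fold change 0.12, SE 0.37, and 0.25 without healthy 1). Cox7a2l, a related protein that joins complexes III and IV into supercomplexes and is known to be shortened in C57BL/6 mice, was at 548, 542 and 397 CPM in HCC libraries and at 498 and 678 CPM in healthy libraries. Healthy 2 was above all HCC libraries and healthy 1 among them (-0.42, SE 0.33, and -0.48 without healthy 1). The Cox7a2 part of the joint Cox7a2 and Cox7a2l counts was 25.8%, 21.3% and 35.0% in HCC libraries and 22.8% and 18.4% in healthy libraries, and HCC 2 lay between the healthy values.

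Cox8a, the common form of subunit VIII, was at 628, 634 and 412 CPM in HCC libraries and at 186 and 874 CPM in healthy libraries. The healthy libraries were 4.70-fold apart and enclosed all HCC values, and the log2 fold change of -0.02 (SE 0.51) became -0.68 without healthy 1. Cox6c was at 507, 568 and 419 CPM in HCC libraries and at 284 and 556 CPM in healthy libraries, and Cox6b1, at the cytochrome c side, was at 199, 183 and 169.9 CPM in HCC libraries and at 91.7 and 199.8 CPM in healthy libraries. Healthy 1 was below the HCC range in both. Cox7b was at 121, 131 and 102 CPM in HCC libraries and at 70.6 and 104 CPM in healthy libraries, with healthy 2 just inside the HCC range. These 3 had log2 fold changes of 0.10 to 0.27 (-0.19 to 0.15 without healthy 1), and Cox7c and Cox5b, the remaining members, were at 0.10 each (-0.58 and -0.20 without healthy 1).

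Complex V held the members with the smallest unadjusted p, both fitted lower in HCC. Its genes summed to 4106, 3867 and 3523 CPM in HCC libraries, against 3956 and 4658 CPM in healthy libraries. On library totals, healthy 2 was above every HCC library and healthy 1 among them, a log2 ratio of group means of -0.17. After TMM scaling the ratio was -0.35, and both healthy sums lay above every HCC sum. Of the 16 tested genes, 7 were fitted higher and 9 lower. Atp5o, the subunit that ties the catalytic head to the peripheral stalk and confers oligomycin sensitivity (chr16:91925214-91931687), was at 204, 169 and 195 CPM in HCC libraries and at 299 and 345 CPM in healthy libraries. All HCC libraries were below both healthy libraries by more than the spread within either group, with means of 189 ± 17.8 CPM in HCC (SD, n = 3) and 322 ± 32.0 CPM in healthy cells (SD, n = 2). By edgeR's quasi-likelihood test the log2 fold change was -0.94 (SE 0.34, unadjusted p = 0.0194, adjusted p = 0.9999), and it was -0.89 without healthy 1. A second gene ID with the symbol Atp5o, whose annotated 3′ end is shared with Donson, had 0 counts.

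Atp5e, the epsilon subunit of the central stalk (chr2:174461072-174464105), was at 596, 495 and 437 CPM in HCC libraries and at 879.8 and 694 CPM in healthy libraries. The groups did not overlap, with means of 509 ± 80.4 CPM in HCC (SD, n = 3) and 787 ± 132 CPM in healthy cells (SD, n = 2). By the same edgeR test its log2 fold change was -0.84 (SE 0.36, unadjusted p = 0.0419, adjusted p = 0.9999) and -0.47 without healthy 1, which was the highest of its 5 libraries. Atp5k, the membrane subunit e that takes part in dimer formation, was at 314, 255 and 443 CPM in HCC libraries and at 853 and 283 CPM in healthy libraries. Healthy 2 lay within the HCC range and healthy 1 alone above it, so the log2 fold change of -1.004 (SE 0.53) became 0.24 without healthy 1. Atp5j2, the membrane subunit f, was at 286, 195 and 277 CPM in HCC libraries and at 363 and 261 CPM in healthy libraries, again with healthy 1 alone outside the HCC range (-0.51, SE 0.39, and -0.06 without healthy 1).

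The catalytic head and the gamma and delta subunits showed little. Atp5a1, the alpha subunit, was at 389, 432 and 314 CPM in HCC libraries and at 319.6 and 338 CPM in healthy libraries, within the HCC range, at a log2 fold change of 0.01 (SE 0.34) and 0.13 without healthy 1. Atp5b (beta), Atp5c1 (gamma) and Atp5d (delta) had log2 fold changes of -0.20, 0.44 and 0.18 with SEs of 0.35 to 0.42, and of -0.46, 0.02 and 0.13 without healthy 1. The stalk and membrane subunits Atp5h, Atp5f1, Atp5j, Atp5l and Atp5mpl were at -0.21 to 0.10, and at -0.91 to 0.39 without healthy 1. Atp5s, a coupling factor, had a single count in each of HCC 3 and healthy 2 and was not tested.

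Subunit c, which forms the rotating ring, is encoded by Atp5g1, Atp5g2 and Atp5g3, which share the mature protein and differ in their import sequences. Atp5g3 was at 683, 512 and 476 CPM in HCC libraries and at 230.2 and 936 CPM in healthy libraries, with healthy 1 below and healthy 2 above every HCC library (log2 fold change -0.15, SE 0.48, and -0.77 without healthy 1). Atp5g2 was at 129.5, 133 and 125 CPM in HCC libraries and at 47.7 and 137 CPM in healthy libraries, and Atp5g1 at 92.5, 123 and 94.5 CPM in HCC libraries and at 54.8 and 111 CPM in healthy libraries. In both, healthy 1 was the lowest library, and the log2 fold changes of 0.37 (SE 0.42) and 0.17 (SE 0.38) became -0.12 and -0.14 without it. On the genes' own rows, the Atp5g3 part of subunit c counts was 75.5%, 66.6% and 68.5% in HCC libraries. It was 69.2% (95% exact interval 65.7 to 72.5%) and 79.0% (77.3 to 80.7%) in healthy libraries, so HCC 1 lay between the healthy libraries and HCC 2 and 3 below both. These parts leave out the rows of pseudogenes with shared 3′ ends. With those rows added, Atp5g2 was at 852, 772 and 677 CPM in HCC libraries and at 347 and 839 CPM in healthy libraries. That is above Atp5g3 in every library except healthy 2, so which gene leads depends on how shared tags are counted.

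Several of these genes have processed pseudogenes, and tags that match both could be counted on either row. In the last 300 bases of their coding transcripts, 18 of the 41 tested members shared no 31-base word with another gene, 17 shared over 10% and 6 over 50% (Cox5a, Atp5l, Atp5h, Cox7c, Atp5g2 and Atp5o). Rows of pseudogenes with such shared ends held 83.6% of the joint counts of Atp5g2 and its pseudogenes, 81.6% for Atp5l, 68.3% for Cox7c, 66.7% for Atp5j and 42.2% for Atp5h. With those rows added, Atp5j was at 110.5, 125 and 122 CPM in HCC libraries and at 28.8 and 113 CPM in healthy libraries, against 34.3, 43.6 and 20.7 CPM in HCC libraries and 8.54 and 59.8 CPM in healthy libraries for its own row. The log2 ratio of group means was 0.75 with the added rows and -0.06 without, with healthy 1 the lowest library in both. Atp5o with its pseudogene Gm5436 was at 238, 191 and 224 CPM in HCC libraries and at 346 and 377 CPM in healthy libraries, which still did not overlap. Sdhb, Cycs and Atp5e had no shared word.

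**Figure D5:**
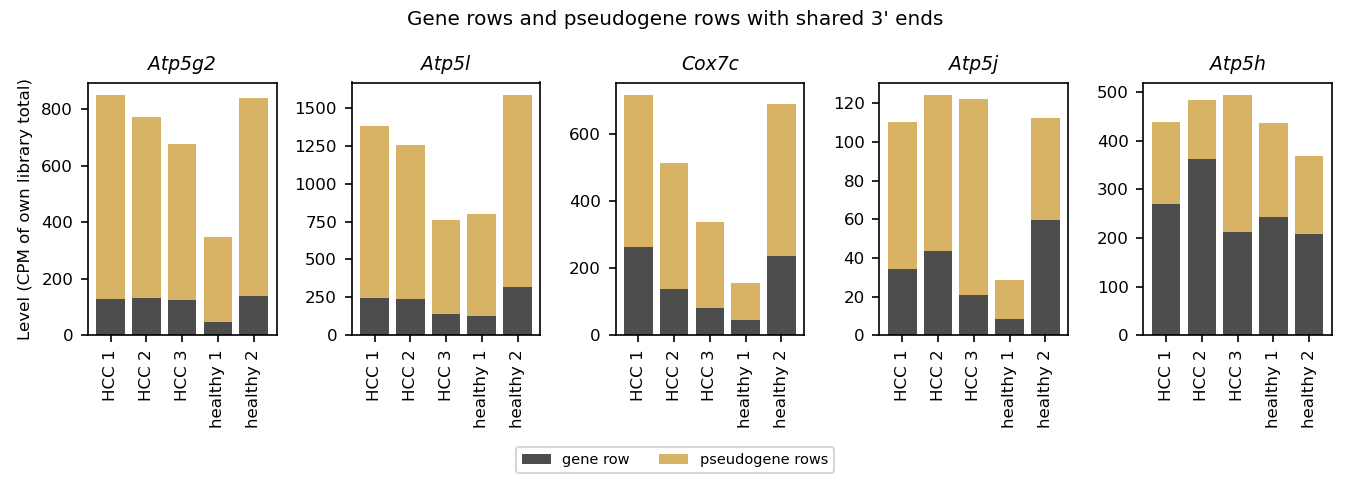
CPM on the gene's own row (grey) and on the rows of its pseudogenes with shared 3′ ends (yellow, stacked) in each library, for the 5 members with the largest pseudogene part. For Atp5g2 and Atp5l the pseudogene rows hold 83.6% and 81.6% of the joint counts.

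Genes that build, feed and regulate these complexes were described by the same fit, and 0 of them were called. Assembly factors of complexes II to V (28 of 36 tested) were fitted higher in 9 and lower in 19 cases, with a median log2 fold change of -0.21. The copper chaperone Cox17 was at 163, 233 and 88.6 CPM in HCC libraries and at 64.3 and 266 CPM in healthy libraries, which enclosed them. Nuclear complex I genes (43 of 46 tested) were fitted higher in 13 and lower in 30 cases, with a median of -0.18. They were taken by symbol and include the Ndufaf assembly factors. Cytosolic ribosomal proteins (84 of 87) were fitted higher in 20 and lower in 64 cases, with a median of -0.22. Over all genes tested the median was 0.0046, and with library totals alone the medians were -0.03, -0.01 and -0.04 for assembly factors, complex I and ribosomal proteins, against 0.16 for all genes.

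The 13 enzymes of the tricarboxylic acid cycle were fitted higher in 8 and lower in 5 cases (median 0.17), and in 4 of them every HCC library was above both healthy libraries, against 12.8% of all genes. Cs (citrate synthase) was at 93.1, 98.3 and 92.4 CPM in HCC libraries and at 40.5 and 74.1 CPM in healthy libraries, without overlap (log2 fold change 0.58, SE 0.38). Mdh2 (malate dehydrogenase) was at 346, 349 and 417 CPM in HCC libraries and at 543 and 408 CPM in healthy libraries, where HCC 3 was just above healthy 2 (-0.57, SE 0.37).

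Carriers and regulators linked to ATP synthase (10 tested of 11) were fitted higher in 6 and lower in 4 cases with all libraries and lower in all 10 against healthy 2 alone. The phosphate carrier Slc25a3 was at 180.1, 251 and 209 CPM in HCC libraries and at 44.1 and 217 CPM in healthy libraries, and the adenine nucleotide carrier Slc25a5 at 219, 140.2 and 221 CPM in HCC libraries and at 142 and 206 CPM in healthy libraries. Both overlapped between groups. Of 12 transcription factors and coactivators of nuclear respiratory genes 7 had enough counts, 6 fitted higher and 1 lower (median 0.16). Tfam, which maintains and transcribes mitochondrial DNA, was at 28.3, 16.9 and 26.5 CPM in HCC libraries and at 10.8 and 29.6 CPM in healthy libraries, and Ppargc1a, the coactivator PGC-1alpha, had 0 counts in every library except healthy 1, at 1.35 CPM. The groups overlapped for Tfam.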

How the data were processed

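RNA of sorted liver iNKT cells (3 HCC and 2 healthy libraries) was read with a QuantSeq 3′ mRNA kit on Ion Torrent, per the labels' protocols. The authors deposited 1 table per library of unnormalized integer read counts, with genes given as Ensembl IDs. The submitters' processing notes list HISAT2, Bowtie2, bcl2fastq, limma, edgeR, DESeq and DESeq2, with no role for any of them, and the build mm10. The counting program, annotation and strand setting are not given in the sources used here, so overlapping genes on opposite strands (Atp5j and Gabpa, Cox4i1 and Emc8) cannot be told apart by strand.

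Symbols, positions and transcripts came from GENCODE M21 (GRCm38), which gave a symbol to 55104 of 55364 IDs. The rest held 0.763 to 1.08% of counts and pseudogene rows 31.7 to 38.5%. Levels are CPM of each table's own total, and summed levels add these. Counts were tested in R 4.3.3 with edgeR 4.0.16: filterByExpr by group, TMM factors of 1.04, 1.12 and 1.00 for HCC 1 to 3 and 0.829 and 1.04 for healthy 1 and 2, and the quasi-likelihood F test, adjusted by Benjamini and Hochberg over the 8468 genes kept. SE is the absolute log2 fold change over the square root of F. The common dispersion was 0.289 and the biological coefficient of variation 53.8%. The fit was tested on simulated data. Named in full were the 4 members with the highest mean CPM in each complex, the 12 with the smallest unadjusted p, those not overlapping with an unadjusted p under 0.05, and the isoform sets; other members were named after their values were seen. From each other list up to 3 genes by mean CPM were eligible to be named, and 1 of these is not reported here. The members and the gene lists were chosen with earlier results of these data known. Alternatives were DESeq2 1.42.0 and its size factors, limma-voom (limma 3.58.1), library totals, other filters, protein-coding genes only, a replicate block, HCC 2 and 3 summed (their tables carry a common number in their names), pseudogene rows added, and each library left out.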

Additional observations from a re-analysis of the deposited data

How the results depend on the processing

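No member was called under any alternative run except without healthy 2, where Sdhc was. The count of genes called, 0 in the edgeR fit (307 at an unadjusted p under 0.05), was 53 with no filter on low counts, 8 by the DESeq2 Wald test and 0 to 196 with 1 library left out, the 196 without healthy 2. Nothing in the labels says that the replicate numbers pair mice. Deviations from the group mean had an r of 0.00 for replicate 1 and 0.12 for replicate 2. The unmatched pair of healthy 1 and HCC 3 had 0.13. The deviations of the 2 healthy libraries mirror each other, so these values cannot decide the pairing. A replicate block called 3 genes and 0 members, and the paired fit stands only here. Leaving out 1 library gave 0 to 1 members called, a median log2 fold change of members of -0.17 to 0.45, and log2 ratios of summed levels of -0.093 to 1.65 for complex II, -0.33 to 0.65 for complex IV and -0.24 to 0.21 for all members, with the low end without healthy 1 and the high end without healthy 2 in each. Levels after TMM or DESeq2 scaling gave -0.24 in both for complex III and -0.35 in both for complex V.

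Of 28 named members, 10 kept their sign under every alternative and 18 did not. With 1 library left out, log2 fold changes ranged from -0.19 to 0.25 for Sdha, -0.25 to 3.03 for Sdhc, -0.93 to 2.25 for Sdhd, -0.49 to 0.20 for Uqcrh, -0.021 to 1.03 for Uqcrb, -0.82 to 0.39 for Uqcr10, -1.28 to 0.68 for Uqcrfs1, -1.36 to 0.40 for Uqcrc2, -0.68 to 1.29 for Cox8a, -0.19 to 0.51 for Cox6c, -0.50 to 0.58 for Cox6a1, -0.037 to 0.30 for Cox7a2, -0.15 to 0.71 for Cox6b1, -0.77 to 0.99 for Atp5g3, -1.61 to 0.24 for Atp5k, -0.054 to 0.13 for Atp5a1, -0.12 to 1.15 for Atp5g2 and -0.14 to 0.62 for Atp5g1. With library totals Sdha was at 0.15, Cox8a at 0.074 and Cox6a1 at 0.043. With no filter Sdha was at 0.038 and Cox8a at 8.6e-05. With limma-voom Sdha was at 0.0050, Sdhd at 0.56, Cox8a at 0.26 and Atp5g3 at 0.063. With the replicate block Sdhd was at 0.57, Cox8a at 0.42, Cox7a2 at -0.062 and Atp5g3 at 0.13. With HCC 2 and 3 summed Cox8a was at 0.038, and with protein-coding genes only Atp5a1 was at -0.059. Where a value moved for another reason than the libraries left out, the cause was not tested.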
